A study of Caenorhabditis elegans with 16 samples.

Results

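The genes described here encode the enzymes of the 2 routes by which C. elegans breaks down propionyl-CoA: 5 genes of the propionate shunt (acdh-1, ech-6, hach-1, hphd-1 and alh-8) and 5 genes of the vitamin B12-dependent route (pcca-1, pccb-1, mce-1, mmcm-1 and mmaa-1). They were picked by symbol, through the WBcel235 annotation, from the 21882 genes of the deposited count table. All 10 were found once each, and all 10 were among the 17844 genes that passed the filter on low counts.

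Propionyl-CoA is left over from the breakdown of valine, isoleucine, methionine, threonine and odd-chain fatty acids, and its acid, propionate, is toxic when it builds up. With enough vitamin B12, which worms take from their bacterial food, propionyl-CoA carboxylase (the subunits pcca-1 and pccb-1), the methylmalonyl-CoA epimerase mce-1 and the mutase mmcm-1, whose cofactor is a form of B12, turn it into succinyl-CoA, and mmaa-1 is the counterpart of a human protein that keeps the mutase supplied with cofactor. The shunt does without B12. In it the dehydrogenase acdh-1, the hydratase ech-6, the hydrolase hach-1, the dehydrogenase hphd-1 and the aldehyde dehydrogenase alh-8 act in that order and end at acetyl-CoA. In C. elegans the shunt is known to be switched on when propionate builds up at low B12, through the nuclear hormone receptors nhr-10 and nhr-68, and acdh-1 is widely used as a reporter of dietary B12.

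Whole animals of the wild-type N2 Bristol strain were compared in 4 groups of 4 libraries: young adults with free access to food, young adults fasted for 6 h, day 8 adults with free access to food, and day 8 adults fasted for 6 h. All were kept on NGM plates, and polyA RNA was sequenced. The series text states that the aim was to find genes that respond to fasting in young but not in aged animals. The labels do not say whether the 4 libraries of a group are separate cultures, so p-values measure only the spread between these libraries, which may be technical. Libraries held 58.4 to 117.7 M counts (M, mega), and the lowest count of any of the 10 genes in any library was 1160 (acdh-1, fasted day 8). Among small whole values (1 to 12) 57.2 to 69.6% per library were even, so the ends of a read pair may have been counted separately and counts may overstate the number of fragments; calls of the 10 genes were therefore also counted after dividing counts by 2. In bulk RNA of whole animals, fewer cells of a type and less RNA per cell cannot be told apart. By the well codes in the sample names, young and day 8 libraries also sat in different columns of a plate, and fed libraries sat in rows A to D and fasted ones in rows E to H. An effect of plate position cannot be told apart from one of age or of feeding state.

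Day 8 libraries 1 and 2 stood apart from day 8 libraries 3 and 4 in both feeding states, along principal components 2 and 3. These held 9.4% and 5.07% of the variance, and component 2 also held fed and fasted young adults apart. In both feeding states 7 of the 10 genes were lower in each of libraries 3 and 4 than in each of libraries 1 and 2. These were ech-6, hach-1, pcca-1, pccb-1, mce-1, mmcm-1 and mmaa-1. The share of all genes split in this way was not counted. The B12-route gene mmcm-1 read 185 and 171 CPM (counts scaled to a common library total, as edgeR computes counts per mega count) in fed day 8 libraries 1 and 2 and 137 and 136 CPM in libraries 3 and 4. The shunt gene acdh-1 went the other way, with 60.2 and 68.5 CPM in fed libraries 1 and 2 and 71.9 and 72.5 CPM in libraries 3 and 4. For some of the genes, fold changes that rest on day 8 libraries are therefore also given below with libraries 3 and 4, or libraries 1 and 2, left out at day 8.

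**Figure D1:**
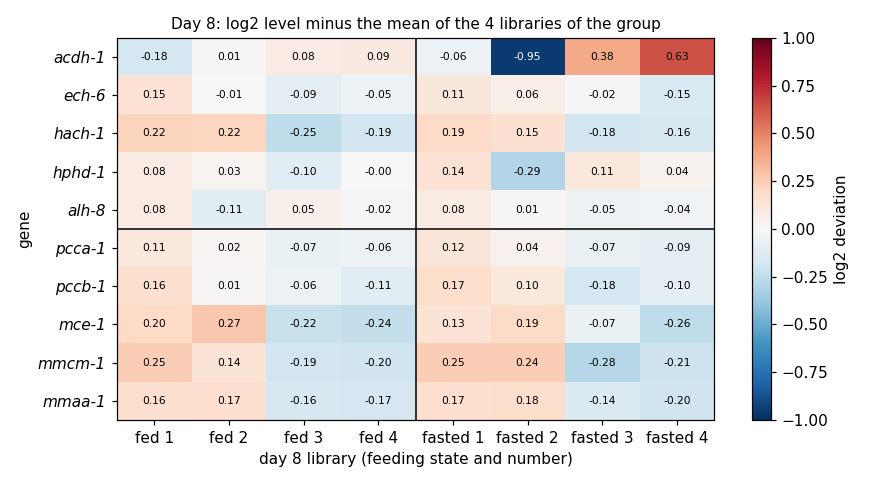
Log2 level of each gene in each of the 8 day 8 libraries, minus the mean of the 4 libraries of the same feeding state (colour and printed value; shunt genes above the line, B12-route genes below, fed libraries left, fasted right). For mmcm-1 libraries 1 and 2 lie above the group mean (0.25 and 0.14 fed) and libraries 3 and 4 below it (-0.19 and -0.20 fed), and for acdh-1 fasted library 2 lies lowest at -0.95.

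Per length of exon, the shunt was the more abundant route in fed young adults, and 3 of its genes stood well above the rest. Levels per kb of exon were 706 ± 20.2 CPM per kb for alh-8, 676 ± 9.01 for acdh-1 and 565 ± 8.39 for ech-6 (SD, n = 4), followed by hphd-1 at 256 ± 7.90 and hach-1 at 210 ± 1.72. In the B12 route they ran from 47.7 ± 0.457 CPM per kb for mce-1 to 166 ± 2.52 for pccb-1. Summed over its 5 genes the shunt came to 2410 ± 41.0 CPM per kb and the B12 route to 519 ± 4.13, a ratio of 4.64 ± 0.0719 (SD, n = 4).

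Fasting for 6 h lowered every gene of the shunt in young adults, and acdh-1, at its entry, most of the 5. The 4 fed libraries held acdh-1 (WBGene00016943, chromosome I, 6497436 to 6499560, WBcel235) at 1150, 1139, 1133 and 1114 CPM, and the 4 fasted libraries at 86.1, 85.0, 87.6 and 85.2 CPM. Fed and fasted libraries were far apart, and within each state they differed little. The log2 fold change was -3.72 ± 0.24 (SE; edgeR quasi-likelihood test, adjusted p = 4.43e-09), a level 13.2-fold lower.

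The next step, ech-6 (WBGene00001155, chromosome III, 9751552 to 9752883), stood at 573, 586, 570 and 567 CPM in fed and 125, 117, 129 and 126 CPM in fasted young adults. Again no library overlapped the other state, and the log2 fold change was -2.21 ± 0.07 (edgeR, adjusted p = 1.37e-12). For hphd-1 (WBGene00012608, chromosome II, 12994354 to 12996571), which oxidises the free hydroxy acid, the values were 422, 440.1, 430 and 409 CPM fed and 120, 118, 117 and 121 CPM fasted. The groups did not overlap (log2 -1.84 ± 0.08, edgeR adjusted p = 6.17e-11). The hydrolase gene hach-1 (WBGene00017301, chromosome III, 5555450 to 5557318) lies between these enzymes in the pathway and went from 313 ± 2.54 to 131 ± 3.07 CPM (SD, n = 4; log2 -1.25 ± 0.11, edgeR adjusted p = 2.06e-07).

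The last step, alh-8 (WBGene00000114, chromosome II, 11729055 to 11731198), moved least within the shunt. It read 1260, 1276, 1270 and 1198 CPM in fed and 859, 858, 839 and 846 CPM in fasted young adults, with no overlap (log2 -0.56 ± 0.06, edgeR adjusted p = 1.25e-06). A gene on the other strand overlaps 34 exon bases of alh-8 and another overlaps 43 exon bases of pccb-1. Whether the counting used strand is not given in the sources used here, and the other 8 genes share no exon base with any annotated gene. Reads shared with genes of similar sequence elsewhere, such as other acyl-CoA dehydrogenases or hydratases, were not checked for.

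With these unequal falls the make-up of the shunt changed. In fed young adults acdh-1 made up 28.0 ± 0.275% of the summed level per kb of the 5 shunt genes, and in fasted ones 6.30 ± 0.0816% (SD, n = 4). Fasted young adults held alh-8 at 480 ± 5.57, ech-6 at 122 ± 5.00, hach-1 at 88.0 ± 2.03, hphd-1 at 71.5 ± 1.28 and acdh-1 at 51.2 ± 0.707 CPM per kb, so that acdh-1 had the second highest of the shunt levels in fed and the lowest in fasted young adults.

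**Figure D2:**
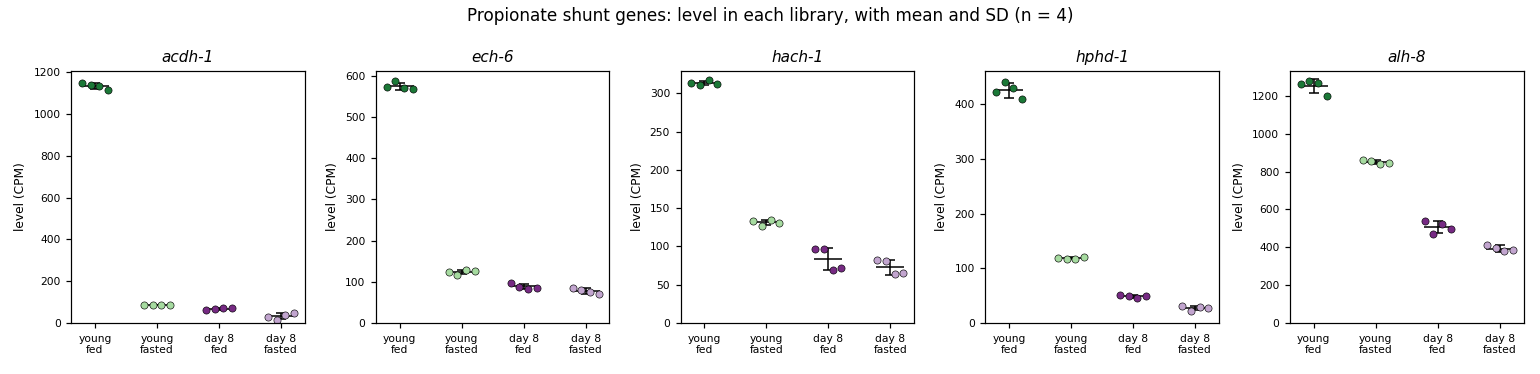
Level in CPM (y axis, from 0) of the 5 shunt genes in each of 16 libraries, with a panel per gene, points for libraries 1 to 4 from left to right in each group, and mean and SD (n = 4) as a line and bars. Fed young adults lie above every other group in all 5 panels, for example at 1114 to 1150 CPM for acdh-1 against 85.0 to 87.6 CPM in fasted young adults.

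Genes of the B12 route moved less, and not all in one direction. Carboxylase genes fell: pcca-1 (WBGene00017864, chromosome X, 7657542 to 7660986) from 278 ± 6.75 to 204 ± 4.47 CPM (SD, n = 4; log2 -0.45 ± 0.06, edgeR adjusted p = 1.93e-05), and pccb-1 (WBGene00018701, chromosome X, 3089549 to 3092437) from 309 ± 4.72 to 244 ± 1.74 CPM (log2 -0.34 ± 0.08, edgeR adjusted p = 0.00192). The cofactor chaperone gene mmaa-1 (WBGene00020169, chromosome II, 7099583 to 7101165) fell from 153 ± 5.70 to 106 ± 2.47 CPM (log2 -0.53 ± 0.10, edgeR adjusted p = 0.000399). The nearest annotated gene upstream of it, farl-11, is 52 bases away.

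The mutase and the epimerase did not fall. For mmcm-1 (WBGene00014202, chromosome III, 3903185 to 3907687) fed young libraries read 210, 211, 212 and 207 CPM and fasted ones 237, 236, 231 and 228 CPM. Every fasted library was thus above every fed one, by a small margin (log2 0.15 ± 0.12, edgeR adjusted p = 0.337). The epimerase gene mce-1 (WBGene00008415, chromosome I, 7582106 to 7583333) read 38.2 to 39.0 CPM fed and 39.8 to 42.3 CPM fasted, also without overlap (log2 0.08 ± 0.12, edgeR adjusted p = 0.592). Neither was called in the model of all 16 libraries, which gives each gene 1 spread. The SD of mmcm-1 was 24.9 CPM fed and 29.0 CPM fasted at day 8, and 2.01 and 4.09 CPM in young adults. Its part in the missing call was not tested. In a fit of the 8 young libraries alone both were called higher, with log2 0.17 and adjusted p = 3.44e-06 for mmcm-1, and log2 0.10 and adjusted p = 0.0077 for mce-1 (edgeR). In that fit 74.7% of all genes were called and 38.3% were called higher.

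In all, edgeR called 8 of the 10 genes lower and none higher in fasted young adults, and DESeq2 the same numbers. Of all tested genes, 21.1% were called lower, 21.2% higher and 42.4% in either direction. None of the 10 was higher at an unadjusted p under 0.05, against 25.8% of all genes. Libraries did not overlap for any of the 10, with 8 lower and 2 higher, against 31.6% of all genes without overlap and lower and 31.8% higher. The median log2 fold change was -1.84 over the 5 shunt genes and -0.34 over the 5 B12-route genes, against 0.03 over all tested genes. Summed levels per kb fell from 2410 ± 41.0 to 813 ± 5.44 CPM per kb for the shunt and from 519 ± 4.13 to 433 ± 4.54 for the B12 route, and their ratio went from 4.64 ± 0.0719 to 1.88 ± 0.0216 (SD, n = 4). Summed levels and the ratio were not tested.

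Markers of the intestine, a tissue that makes these enzymes, moved both ways in the same comparison, where 21.2% of all tested genes were called higher and 21.1% lower. Of 10 intestine markers 4 rose and 3 fell, and their summed level was 4320 to 4580 CPM in fed and 3640 to 3710 CPM in fasted young libraries. The largest fall in CPM was that of act-5, from a mean of 803 to 72.4 CPM. None of the 10 was at 0 in any group. Of 8 oocyte and germ line markers 3 fell and none rose (summed level 7060 to 7290 CPM fed and 5350 to 5430 CPM fasted), and of 8 neuron markers 3 rose and 1 fell (403 to 410 CPM fed and 547 to 558 CPM fasted). Of 7 sperm markers 1 rose (556 to 580 CPM fed and 831 to 851 CPM fasted), and of 6 muscle markers edgeR called none, with 1 at an unadjusted p under 0.05 and none by DESeq2 (11400 to 12300 CPM fed and 13400 to 14300 CPM fasted). Of 8 hypodermis markers edgeR called none (2 at an unadjusted p under 0.05, and 1 by DESeq2), with a summed level of 2620 to 2830 CPM fed and 1990 to 2020 CPM fasted. Most of that sum was col-19, with a mean of 2620 CPM fed and 1920 CPM fasted. Their part in the result was not tested.

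**Figure D3:**
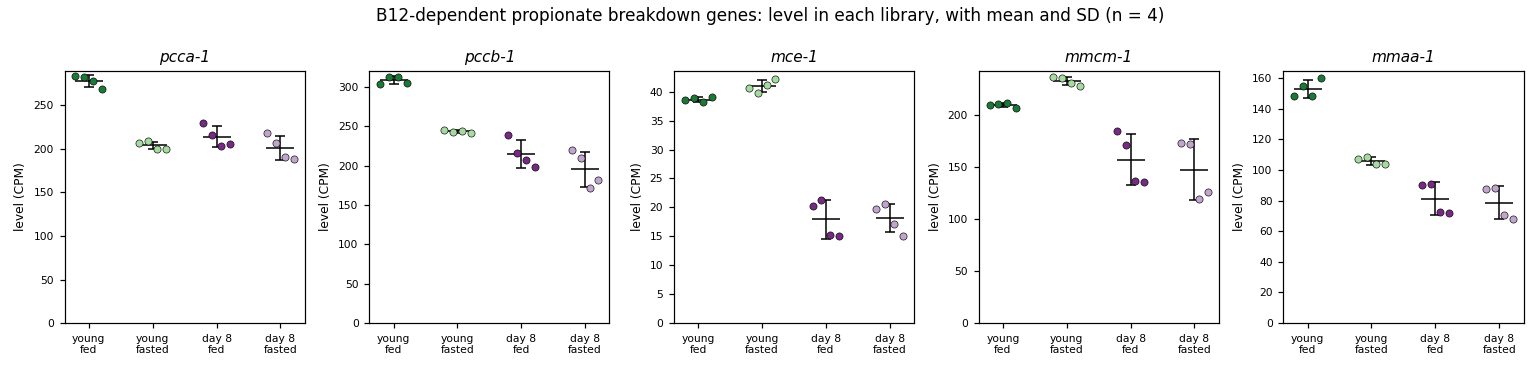
Level in CPM (y axis, from 0) of the 5 genes of the B12-dependent route in each of 16 libraries, with points, lines and bars as for the shunt genes. Fasted young adults lie below fed ones for pcca-1, pccb-1 and mmaa-1 and slightly above them for mce-1 and mmcm-1, and at day 8 libraries 1 and 2 lie above libraries 3 and 4 within each group.

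At day 8 the same fast moved the shunt by less, and edgeR called 2 of its genes lower. The clearest was hphd-1, at 51.3, 49.4, 45.2 and 48.5 CPM in fed and 30.4, 22.5, 29.6 and 28.2 CPM in fasted day 8 libraries. No fasted library reached the lowest fed one (log2 -0.81 ± 0.08, edgeR adjusted p = 9.13e-05). The other was alh-8, at 538, 470.1, 524 and 499 CPM fed and 415, 397, 380 and 383 CPM fasted, likewise without overlap (log2 -0.37 ± 0.06, edgeR adjusted p = 0.00852).

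For acdh-1 the change was larger in size and much more variable. Fed day 8 libraries 1 to 4 held 60.2, 68.5, 71.9 and 72.5 CPM, and fasted libraries 1 to 4 held 29.4, 15.8, 39.9 and 47.6 CPM. Every fasted library lay below every fed one, and fasted libraries 2 and 4 differed from each other by more than fasted library 4 differed from fed library 1. The log2 fold change was -1.04 ± 0.22 (edgeR, adjusted p = 0.0574), which did not pass. It passed without fasted library 2 (log2 -0.81, adjusted p = 0.00673) and without fasted library 4 (log2 -1.29, adjusted p = 0.0145). It was -1.52 with day 8 libraries 3 and 4 left out and -0.72 with day 8 libraries 1 and 2 left out, each with 2 against 2 libraries at day 8.

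Neither ech-6 nor hach-1 was called at day 8 by edgeR, while DESeq2 called 4 of the 5 shunt genes. Levels of ech-6 were 83.4 to 98.3 CPM fed and 69.7 to 83.9 CPM fasted (log2 -0.20 ± 0.07, edgeR adjusted p = 0.491), and those of hach-1 69.4 to 96.6 CPM fed and 63.8 to 82.5 CPM fasted (log2 -0.20 ± 0.11, edgeR adjusted p = 1). Both overlapped between feeding states. Comparing libraries of the same number, fasted against fed, all 5 shunt genes were lower in 4 of 4 pairs. The labels do not name these pairs, and for ech-6 and hach-1 the count depends on the pairing. For acdh-1, hphd-1 and alh-8, whose feeding states did not overlap, any pairing gives this count. The share of all genes lower in every pair was not counted.

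None of the 5 B12-route genes was called at day 8 in the model of all 16 libraries, by edgeR or by DESeq2. None had an unadjusted p under 0.05 there (edgeR), where 2.82% of all genes were lower and 2.38% higher. Their log2 fold changes ran from -0.14 ± 0.08 for pccb-1 to 0.02 ± 0.12 for mce-1, and all 5 overlapped between feeding states. In pairs of the same number pcca-1, pccb-1 and mmaa-1 were lower in 4 of 4, mmcm-1 in 3 and mce-1 in 2. Such pair counts were not made for all genes. With day 8 libraries 1 and 2 left out, edgeR called pccb-1 and mmcm-1 lower, beside 6.73% of all genes called lower.

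The day 8 count of 2 of 10 stood beside 0.37% of all tested genes called in either direction and 0.219% called lower, and it depended on the model. DESeq2 called 4 of the 10, all lower, beside 1.27% of all genes in either direction. Libraries did not overlap for 3 genes (acdh-1, hphd-1 and alh-8), all lower, against 1.13% of all genes. The labels name no pairs. Day 8 libraries of the same number were taken as pairs because their deviations from group means correlated, at 0.329 to 0.564. Even so, fed libraries 1 and 3 correlated more strongly with fasted libraries 2 and 4. The block within each age was fitted in young adults too, where same-number correlations were -0.005 to 0.04. With a replicate block within each age 6 of the 10 genes were called lower (acdh-1, ech-6, hach-1, hphd-1, alh-8 and pccb-1), and with a term for day 8 libraries 3 and 4 the same 6. In the 8 day 8 libraries alone none was called by edgeR (adjusted p = 0.113 for hphd-1 and 0.564 for alh-8), while a replicate block in those 8 libraries gave 3, namely hphd-1 (adjusted p = 0.00231), alh-8 (0.012) and acdh-1 (0.0392). Leaving out day 8 libraries 3 and 4 gave 4 genes called lower. Leaving out day 8 libraries 1 and 2 gave 7, all but pcca-1, mce-1 and mmaa-1. The shares of all genes called in these fits were 2.88% with the block within each age, 4.70% with the term, 0.0239% in the day 8 libraries alone, 0.939% with the block there, 1.85% without libraries 3 and 4 and 8.73% without libraries 1 and 2. Leaving out libraries 3 and 4, then libraries 1 and 2, gave log2 -0.94 and -0.70 for hphd-1, -0.32 and -0.43 for alh-8, -0.19 and -0.22 for ech-6 and -0.25 and -0.15 for hach-1. Of the 10 intestine markers edgeR called none at day 8 (4 at an unadjusted p under 0.05, and 1 by DESeq2), with a summed level of 1030 to 1240 CPM in fed and 885 to 1030 CPM in fasted libraries; their part was not tested.

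The response to fasting was tested for a difference between the ages, as the young minus the day 8 response. It was more negative in young adults for 6 of the 10 genes, beside 12.6% of all tested genes called in that direction and 26.1% in either. In the shunt these were acdh-1 (log2 -2.68 ± 0.31, edgeR adjusted p = 7.99e-06), ech-6 (-2.01 ± 0.10, adjusted p = 3.97e-10), hach-1 (-1.05 ± 0.16, adjusted p = 9.8e-05) and hphd-1 (-1.03 ± 0.11, adjusted p = 4.13e-06). In the B12 route they were pcca-1 (-0.36 ± 0.08, edgeR adjusted p = 0.00507) and mmaa-1 (-0.48 ± 0.14, adjusted p = 0.0169).

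The shunt gene whose responses were closest at the 2 ages was alh-8, at -0.56 in young adults and -0.37 at day 8. Its difference of -0.19 ± 0.08 had a 95% interval of -0.36 to -0.02 and did not pass over all genes (edgeR, adjusted p = 0.103). Without fed day 8 library 1 it passed (adjusted p = 0.0476). For pccb-1 the difference of -0.20 ± 0.11 (edgeR, adjusted p = 0.18) passed without fed day 8 library 1 (adjusted p = 0.0452) and without fasted day 8 library 3 (adjusted p = 0.0162). Values for mce-1 (0.06 ± 0.17) and mmcm-1 (0.24 ± 0.17) did not pass. With a replicate block within each age 9 genes were called, mmcm-1 higher (log2 0.25, adjusted p = 0.000762) and all others but mce-1 lower, beside 50.7% of all genes called. Leaving out day 8 libraries 3 and 4, then 1 and 2, gave a difference of -2.19 and -2.99 for acdh-1, -2.002 and -1.974 for ech-6, -0.99 and -1.09 for hach-1, -0.89 and -1.13 for hphd-1, -0.35 and -0.32 for pcca-1 and -0.46 and -0.45 for mmaa-1. These 6 passed both times, where 7975 of 17708 and 8831 of 18462 genes were called.

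**Figure D4:**
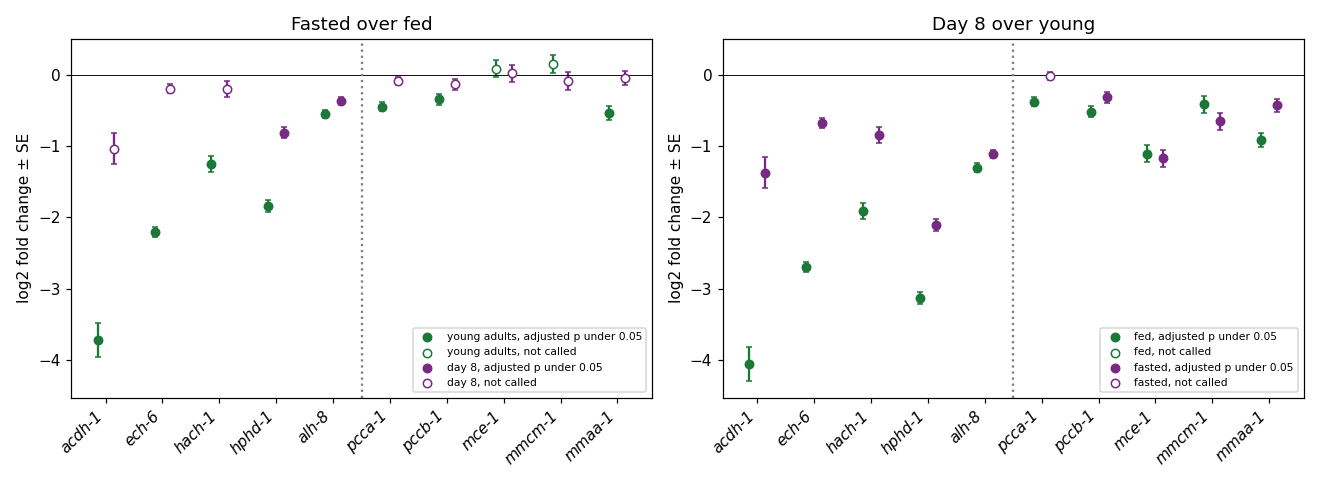
Log2 fold change with SE (y axis) of the 10 genes for fasted over fed (left panel, young adults in green and day 8 in purple) and for day 8 over young (right panel, fed in green and fasted in purple), with filled points for an adjusted p under 0.05 and the shunt genes left of the dotted line. In the left panel the shunt genes in young adults reach from -0.56 to -3.72, and at day 8 from -0.20 to -1.04.

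With age, every gene of both routes was lower in fed animals, and the shunt by more. Fed day 8 animals held acdh-1 at 68.3 ± 5.65 CPM against 1134 ± 15.1 CPM in fed young adults (SD, n = 4; log2 -4.05 ± 0.24, edgeR adjusted p = 7.99e-10). The level of hphd-1 was 48.6 ± 2.56 against 425 ± 13.2 CPM (log2 -3.13 ± 0.08), and that of ech-6 89.0 ± 6.52 against 574 ± 8.56 CPM (log2 -2.69 ± 0.07). Further down came hach-1 (log2 -1.90 ± 0.11) and alh-8 (-1.30 ± 0.06). None of the 5 overlapped between the ages, and the adjusted p for each lay at or below that of acdh-1.

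In the B12 route the epimerase gene mce-1 was furthest down, from 38.7 ± 0.370 to 17.9 ± 3.32 CPM (SD, n = 4; log2 -1.11 ± 0.12, edgeR adjusted p = 6.13e-07). It was followed by mmaa-1 (log2 -0.91 ± 0.10), pccb-1 (-0.52 ± 0.08), mmcm-1 (-0.42 ± 0.12, edgeR adjusted p = 0.00733) and pcca-1 (-0.38 ± 0.06). All 10 genes were thus called lower, beside 34.7% of tested genes called lower and 65.4% called in either direction. All 10 were also without overlap between the ages, as were 34.2% of all genes in that direction. The shunt median was -2.69, the B12-route median -0.52 and the median of all tested genes -0.01. Under RLE scaling the last moved to 0.10, and all 10 genes were still called lower, beside 31.8% of all genes. All 10 were also called lower without day 8 libraries 3 and 4 and without day 8 libraries 1 and 2. In that order 38.8% and 38.0% of all genes were called lower. Log2 fold changes were -4.12 and -3.87 for acdh-1, -0.88 and -1.25 for mce-1 and -0.22 and -0.52 for mmcm-1.

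Between fasted animals of the 2 ages the differences were smaller for the shunt. Day 8 over young in fasted animals was -2.10 ± 0.08 for hphd-1, -1.37 ± 0.22 for acdh-1, -1.11 ± 0.06 for alh-8, -0.85 ± 0.11 for hach-1 and -0.68 ± 0.07 for ech-6. All passed (edgeR, highest adjusted p = 4.29e-05, for acdh-1). Of the B12 route mce-1 (-1.17 ± 0.12), mmcm-1 (-0.66 ± 0.12), mmaa-1 (-0.43 ± 0.10) and pccb-1 (-0.32 ± 0.08) passed too. The exception was pcca-1, at 200.1 to 209 CPM in fasted young and 188 to 218 CPM in fasted day 8 libraries (log2 -0.02 ± 0.06, edgeR adjusted p = 0.756), whose sign was the opposite under RLE scaling (0.07). In all 9 of 10 were called lower, beside 36.9% of tested genes called lower and 68.1% in either direction. These 9 did not overlap between the ages, against 36.6% of all genes in that direction. With either set of day 8 libraries left out 9 were called. Of all genes 42.5% were called lower without libraries 3 and 4 and 38.3% without libraries 1 and 2. In the same order the value moved most for acdh-1, from -1.94 to -0.88, and for mmcm-1, from -0.44 to -0.84. The comparisons share libraries: fed young adults enter both the young fasting and the fed age comparison, and fasted young adults both the young fasting and the fasted age comparison.

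For all 5 shunt genes the order of mean levels was the same, from fed young through fasted young and fed day 8 to fasted day 8 animals. In acdh-1, hphd-1 and alh-8 no library of a group overlapped the next group in this order. In ech-6 and hach-1 the first 3 groups were apart and the day 8 groups overlapped. The share of all genes with this order, or with groups apart in it, was not counted. The neighbours closest in level were fasted young and fed day 8 animals for acdh-1, which read 85.0 to 87.6 CPM in fasted young and 60.2 to 72.5 CPM in fed day 8 libraries. In the B12 route mmcm-1 and mce-1 had fasted young adults highest, and pcca-1 had fasted young and both day 8 groups overlapping, between 188 and 230.3 CPM. Summed shunt levels were 532, 488, 495 and 487 CPM per kb in fed and 408, 381, 374 and 374 CPM per kb in fasted day 8 libraries. The ratio of shunt to B12 route was 1.46 ± 0.111 in fed and 1.19 ± 0.108 in fasted day 8 animals (SD, n = 4).

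**Figure D5:**
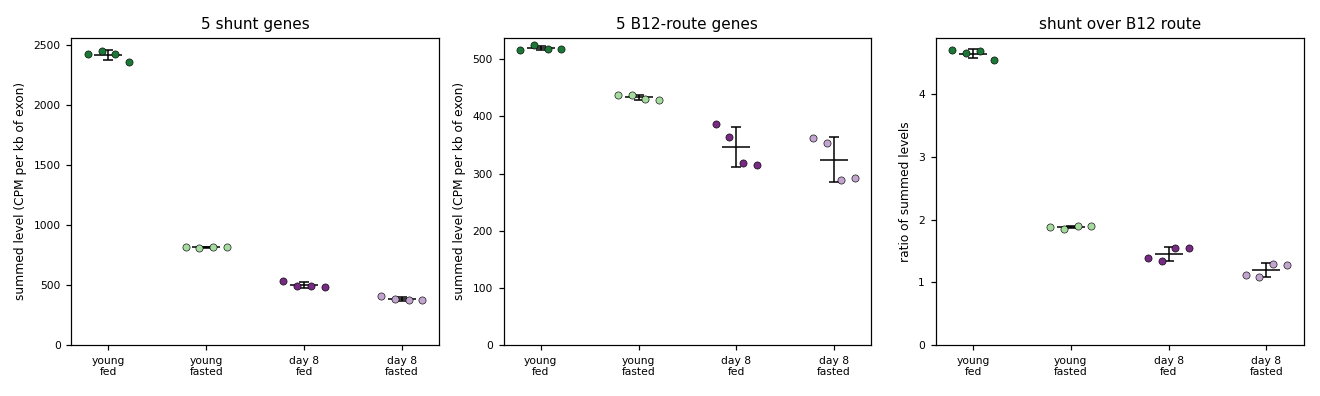
Summed level of the 5 shunt genes (left) and of the 5 B12-route genes (middle) in CPM per kb of exon, and the ratio of these sums (right), in each of 16 libraries with mean and SD (n = 4). The ratio is 4.54 to 4.70 in fed young adults, 1.85 to 1.90 in fasted young adults, 1.34 to 1.55 in fed and 1.08 to 1.29 in fasted day 8 animals.

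Tissue markers moved with age as well, in a comparison where 34.7% of all tested genes were called lower and 30.8% higher. Of 10 intestine markers 8 fell and 1 rose between fed young and fed day 8 animals, with a median log2 fold change of -1.73 and a summed level of 4320 to 4580 CPM in young and 1030 to 1240 CPM in day 8 libraries. All 6 body wall muscle markers fell (median -3.53, from 11400 to 12300 CPM down to 646 to 1150 CPM), and so did all 7 sperm markers (median -7.71). Oocyte and germ line markers fell in 2 of 8 cases (median -0.05) and neuron markers rose in 2 and fell in 3 of 8 cases (median -0.13). Hypodermis markers rose in 4 and fell in 1 of 8 cases (median 1.23), while their summed level went from 2620 to 2830 CPM down to 154 to 364 CPM. Most of the young sum was the 1 gene that fell, col-19, with a mean of 2620 CPM in fed young and 18 CPM in fed day 8 animals. No marker was at 0 in every library of any group. The part of tissue make-up in the age differences was not tested.

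Of the receptors and cofactors that govern the shunt or the response to B12, 4 of 6 rose and 2 fell in fasted young adults. Of all tested genes 21.2% were called higher in that comparison and 21.1% lower. The falls were those of nhr-114, a receptor tied to B12 and methionine supply, from 164 ± 1.15 to 34.8 ± 4.69 CPM (SD, n = 4; log2 -2.24 ± 0.27, edgeR adjusted p = 7.26e-06), and of nhr-68, from 46.7 ± 4.18 to 23.4 ± 2.69 CPM (log2 -0.995 ± 0.146, edgeR adjusted p = 4.84e-05). The lipid regulator nhr-49 rose (log2 0.38 ± 0.05, edgeR adjusted p = 9.02e-06). So did nhr-10, the partner of nhr-68 in switching on the shunt, which is named here after its values were seen, from 19.2 ± 0.730 to 25.4 ± 1.71 CPM (log2 0.41 ± 0.09, edgeR adjusted p = 0.00189). Both shunt activators therefore passed in young adults, in opposite directions. At day 8 none of the 6 was called after fasting by edgeR or DESeq2, and none had an unadjusted p under 0.05. Of all tested genes edgeR called only 0.37% there, and 2.82% were lower and 2.38% higher at an unadjusted p under 0.05. Between fed animals of the 2 ages nhr-68 (log2 -2.38 ± 0.15) and nhr-114 (log2 -4.12 ± 0.30) fell, and nhr-49 rose (0.33 ± 0.05; edgeR, highest adjusted p of the 3 = 1.44e-05). In the same comparison nhr-10 rose (log2 0.24 ± 0.09, edgeR adjusted p = 0.0261), opposite to nhr-68. That call ended without day 8 libraries 3 and 4 (adjusted p = 0.0617), without fed young library 1 (0.072), 2 (0.0882) or 3 (0.0547) and without fed day 8 library 3 (0.0513) or 4 (0.0664).

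Genes of branched-chain amino acid breakdown, some of which lead to propionyl-CoA, fell in fasted young adults. Of 8 listed genes 7 were matched, among them ivd-1 and mccc-1, which act in leucine breakdown and not on the way to propionyl-CoA. All 7 fell, with a median of -0.74, led by the subunits of the branched-chain keto acid dehydrogenase bckd-1B (log2 -1.02 ± 0.09), bckd-1A (-0.96 ± 0.09) and dbt-1 (-0.98 ± 0.10; edgeR, highest adjusted p of the 3 = 1.12e-06). At day 8 edgeR called none of the 7 after fasting (median -0.07), with 1 at an unadjusted p under 0.05 and 1 called by DESeq2. Between fed young and fed day 8 animals all 7 fell, with a median of -1.21. Of all tested genes 21.1% were called lower in fasted young adults and 34.7% between fed ages. At day 8 only 0.37% were called after fasting in either direction.

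Genes of B12 handling and of the methionine cycle, the other B12-dependent pathway, fell in 7 of 11 cases in fasted young adults and rose in 1. The transporter gene pmp-5 went from 234 ± 2.96 to 23.5 ± 1.68 CPM (SD, n = 4; log2 -3.31 ± 0.31, edgeR adjusted p = 4.43e-07). The S-adenosylmethionine synthetase sams-1 (log2 -1.95 ± 0.22) and the S-adenosylhomocysteinase ahcy-1 (log2 -1.28 ± 0.07) were the others with the smallest p (edgeR, highest adjusted p of the 2 = 3.71e-06). At day 8 edgeR called none of the 11 after fasting (median -0.13), with 2 at an unadjusted p under 0.05 and 1 called by DESeq2. Between fed animals of the 2 ages 9 fell and 1 rose (median -0.81). The shares of all tested genes called lower were 21.1% in fasted young adults and 34.7% between fed ages, and 0.37% were called in either direction at day 8.

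Across the 16 libraries, the genes whose log2 CPM profile was most like that of acdh-1, among 7830 genes with a mean of at least 10 CPM, were ugt-46 (Pearson r = 0.993), T16G12.1 (0.990), Y39B6A.1 (0.989), the yolk protein gene vit-4 (0.986) and dhcr-24 (0.985). All 5 had their highest mean in fed young adults, for example vit-4 at 14300 CPM against 451 CPM in fasted young, 463 CPM in fed day 8 and 257 CPM in fasted day 8 animals. Yolk protein genes have near-identical copies, so the split of counts among them is uncertain. For mmcm-1 they were spat-2 (0.995), let-716 (0.994), the mitochondrial elongation factor gene gfm-1 (0.993), K04C2.2 (0.991) and ttc-37 (0.990), all 5 with their highest mean in fasted young adults. None of the other 9 genes was among the 5 closest to acdh-1 or to mmcm-1. These points share age and feeding state, and the values are descriptions of these libraries.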

How the data were processed

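The authors deposited 1 table of expected counts per gene for 16 libraries. That unit was read off the values: many have decimals, totals differ between libraries, and in each library 94.6 to 96.6% of the entries no larger than 12 were whole to a tolerance of 0.06 of the entry. Per the submitters' processing notes the build is WBcel235 and a tool is DESeq. Aligner and counter: not given in the sources used here. Symbols, positions and exon lengths came from the WBcel235 annotation (Ensembl release 115), which held 21714 of 21882 gene IDs.

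Counts were rounded, filtered with filterByExpr and scaled with TMM factors in edgeR 4.0.16 (R 4.3.3), and all 16 libraries entered 1 quasi-likelihood model with a mean per group. P-values were adjusted over 17844 genes (Benjamini-Hochberg), and genes under 0.05 after adjustment were called; the SE was taken from the F statistic. CPM per kb divides CPM by the union of a gene's exons. Profile likeness used log2 CPM (prior count 2). DESeq2 1.42.0 was an alternative. The steps were tested on simulated data.

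All members were named, up to 3 genes of each further list by smallest adjusted p, and marker lists by counts. The markers act-5 and col-19 were named after their values were seen, for their weight in a sum. Members and lists were chosen with earlier results of these data known. Libraries of a number were taken as pairs at day 8, where deviations from group means correlated at 0.329 to 0.564 in all 4 pairs (fed libraries 1 and 3 correlated more strongly with fasted libraries 2 and 4), and not in young adults (-0.005 to 0.040).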

Additional observations from a re-analysis of the deposited data

Results flagged for a closer look

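For 6 genes the response to fasting differed between young adults and day 8 animals by a test of the difference itself (young minus day 8, edgeR): acdh-1 (log2 -2.68), ech-6 (-2.01), hach-1 (-1.05), hphd-1 (-1.03), pcca-1 (-0.36) and mmaa-1 (-0.48). Of the 40 sets of 4 libraries (10 genes in 4 groups), none held a library far enough from the other 3 to pass Dixon's criterion at the 95% level.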

How the results depend on the processing

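Each of the 50 log2 fold changes (10 genes in 5 comparisons) was recomputed under up to 27 alternatives, 1260 values in all. Of these, 1201 kept their direction and their side of the threshold, 42 newly passed, 2 no longer passed (hphd-1 and alh-8 at day 8, in the 8 day 8 libraries alone) and 15 changed sign. No comparison gained or lost a member under RLE scaling, without the filter on low counts, with counts divided by 2 (in case both ends of a read pair were counted) or with the replicate block over all libraries, under which 2 were called at day 8. The day 8 count of members was 4 with DESeq2, 0 with the age fitted alone, 6 with a replicate block within each age, 6 with a term for day 8 libraries 3 and 4, 4 with day 8 libraries 3 and 4 left out and 7 with day 8 libraries 1 and 2 left out. The count of all genes called at day 8 (66) was 227, 4, 514, 838, 328 and 1612 in the same order, 157 with a replicate block in the day 8 libraries alone, chosen after seeing the data, and 34 to 94 with 1 library left out. Leaving out fed young library 1, 2 or 3, any fasted young library, or fed day 8 library 1 or 3 moved it to 43 or fewer. For the young fasting comparison (7557 genes) it was 12050 with the age alone, 11620 with a replicate block within each age, 11869 with the term, and 11891 and 12125 with either set of day 8 libraries left out. For the difference between ages (4650) the last 4 of these gave 9051, 9398, 7975 and 8831. The cause of these shifts was not tested. Sign changes touched only values near 0 that were not called: mce-1 at day 8 was -0.0492 with day 8 libraries 3 and 4 left out and -0.0501 to 0.11 with 1 library left out, mmaa-1 at day 8 -0.11 to 0.0037, the mce-1 difference between ages -0.0249 to 0.15, and pcca-1 between fasted animals 0.0692 under RLE scaling, 0.0692 with DESeq2, 0.0484 with day 8 libraries 3 and 4 left out and -0.0661 to 0.0312 with 1 library left out.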
